A study of Rattus norvegicus with 8 samples.

Results

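The genes described are 6 immediate-early transcription factors, Egr1, Egr2 and Egr3 of the EGR family and Nr4a1, Nr4a2 and Nr4a3 of the NR4A family, in granulosa cells of immature rats. They were chosen by family, as the probe sets whose platform annotation names exactly 1 of these genes, which gave 10 probe sets of the 31042 on the array that are not controls. RNA of these cells, which line the follicle and nurse the oocyte, was hybridised to 8 Affymetrix arrays of 1 colour. Per the series' design text, the rats received eCG, a gonadotropin that drives follicle growth, and 24 h later either anti-eCG antibody, after which follicles became atretic and 0% of oocytes developed to term, or pre-immune serum, after which 30 to 50% did. Each array is labelled with nothing but a number, so it is unknown which rats had which injection. No treatment was compared, and each array's value is given, with arrays named by their label number. Nothing in the labels says whether 2 arrays came from separate animals.

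EGR proteins are zinc finger factors that bind GC-rich DNA, and NR4A proteins are orphan nuclear receptors that act without a known hormone ligand. Both families are transcribed within minutes of a stimulus, the EGR genes mainly through ERK signalling and serum response factor and the NR4A genes mainly through cyclic AMP and calcium, and their mRNAs are short-lived. In the follicle both are known to be induced in granulosa cells by the luteinizing hormone surge, and EGR1 and NR4A1 are linked to genes of ovulation and steroid synthesis.

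Of the 6 genes, 5 had a measured probe set, meaning that its signal exceeded the median of the array on 2 or more arrays, and Egr3 did not. Of the 10 probe sets, 6 were measured. Over the whole array, 10513 of 14217 named genes and 19331 of 31042 probe sets that are not controls were measured. Signals are MAS5 intensities after scaling of the arrays to each other, and no gene's signal can be set against another gene's. The floor, the 40th percentile of an array, ran from 273 on array 2197 to 471 on array 2195, and a signal under it has no order. In bulk RNA a lower signal can come from fewer cells of a type or from less RNA per cell, which cannot be told apart.

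**Figure D1:**
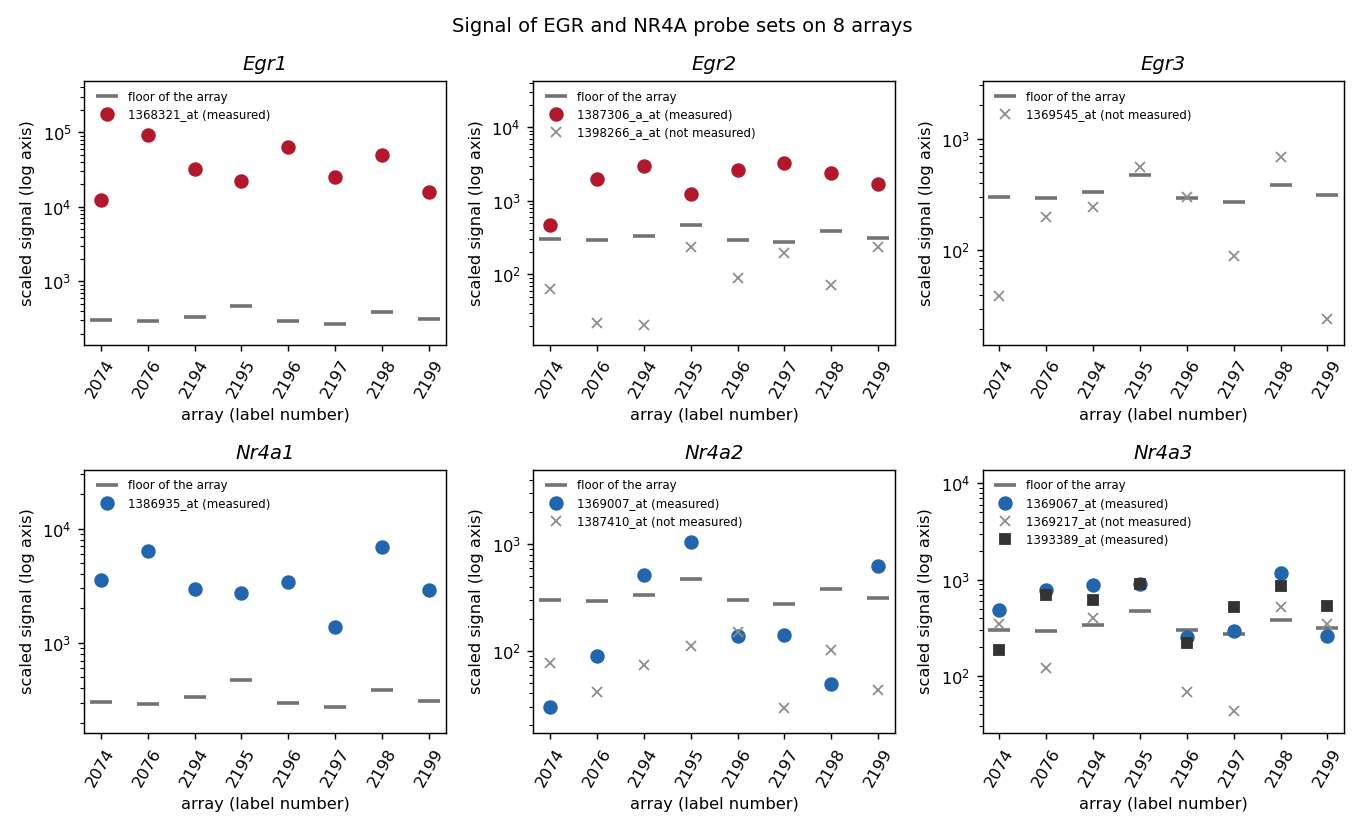
Scaled signal (log axis) of every probe set of the 6 genes on the 8 arrays. Filled circles are the brightest measured probe set of a gene, squares a further measured one, crosses those that were not measured, and grey bars the floor of each array. Egr1 runs from 12421 to 91057 and lies far above the floor on all 8 arrays, whereas Nr4a2 lies above it on 3.

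Promoters were listed for 4 of the 6 genes (RefSeq, build GRCr8, 250 bases before to 50 after 1 start site per gene), and for Egr3 and Nr4a3 none was listed. The promoters of Egr2 (chr20:21054392-21054691, minus strand) and Nr4a1 (chr7:134259888-134260187, plus strand) are shown because they differ in the elements they hold. The pair was chosen with the values on the arrays known. Whether the elements bear on the order of arrays was not tested. Capitals mark CArG boxes, the site of serum response factor, and the cyclic AMP element core TGACG and the related TGCGTCA, searched on both strands.
Egr2: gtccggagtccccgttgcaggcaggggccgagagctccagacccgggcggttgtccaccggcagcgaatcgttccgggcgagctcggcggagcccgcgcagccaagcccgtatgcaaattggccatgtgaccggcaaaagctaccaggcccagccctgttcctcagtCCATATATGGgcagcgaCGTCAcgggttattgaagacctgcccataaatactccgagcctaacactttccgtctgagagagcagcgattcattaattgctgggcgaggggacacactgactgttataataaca
Nr4a1: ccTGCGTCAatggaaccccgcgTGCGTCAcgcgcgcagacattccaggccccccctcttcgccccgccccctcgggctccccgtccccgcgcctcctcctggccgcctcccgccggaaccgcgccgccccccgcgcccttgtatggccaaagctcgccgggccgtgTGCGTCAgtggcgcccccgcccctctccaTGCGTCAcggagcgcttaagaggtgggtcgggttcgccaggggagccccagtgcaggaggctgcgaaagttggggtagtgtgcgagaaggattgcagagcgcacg
The Egr2 window held 1 CArG box, at -83 to -74 from the start site, and 1 TGACG, read on the other strand at -66 to -62. The Nr4a1 window held TGCGTCA 4 times, and each copy contains a TGACG on the other strand. TGCGTCA was searched after this sequence had been seen. Of 33469 promoters of the same length 1.90% held at least 1 TGCGTCA and 1 promoter, that of Nr4a1, held 4. The Nr4a1 window also held 1 EGR site, GCGNGGGCG, at -73 to -65, found in 4.98% of promoters. The Egr1 window held 2 CArG boxes, at -105 to -96 and -83 to -74, and 2 TGACG. A CArG box was found in 1.64% of promoters and 2 of them in 7 promoters, while TGACG was found in 21.2%. The Nr4a2 window held 1 TGACG and no other match. The full element TGACGTCA (1.83% of promoters) and AAAGGTCA, which NR4A proteins bind as monomers (1.43%), had 0 matches in these 4 windows. These are matches of letters and not shown to be bound here.

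Egr1, which encodes the zinc finger factor EGR1, had scaled signals of 12421 on array 2074, 91057 on 2076, 32103 on 2194, 22513 on 2195, 63868 on 2196, 25274 on 2197, 49469 on 2198 and 16018 on 2199. Arrays 2076, 2196 and 2198 were the highest and 2074 and 2199 the lowest. The inner range, the second highest over the second lowest array, was 3.99-fold, and 98.7% of the 10513 measured genes had a narrower one. The full range was 7.33-fold. The log2 inner range was at least 1.51 whichever single array was left out, and 1.15 over arrays 2194 to 2199 alone.

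Egr2, a factor best known for its role in Schwann cells, gave 464 on array 2074, 1964 on 2076, 2949.9 on 2194, 1251 on 2195, 2632 on 2196, 3306 on 2197, 2387 on 2198 and 1683 on 2199. Its lowest array, 2074, was also the lowest for Egr1, but its highest, 2197, was the fifth highest for Egr1. The inner range was 2.36-fold and the full range 7.13-fold, most of which came from array 2074. The other Egr2 probe set lay under the floor on all 8 arrays, so the spread of Egr2 rests on 1 probe set.

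Egr3, a close relative of Egr1, exceeded the array's median only on array 2198, at 689.9. It gave 561 on array 2195 and 303 on 2196, just above their floors, and lay under the floor on the other 5 arrays. Its spread cannot be read at this signal.

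Nr4a1, the orphan receptor also called Nur77, gave 3566 on array 2074, 6338 on 2076, 2955 on 2194, 2744 on 2195, 3391 on 2196, 1373 on 2197, 6942 on 2198 and 2908 on 2199. Arrays 2076 and 2198 were high and 2197 was low, and the other 5 lay between 2744 and 3566. The inner range was 2.31-fold, and its log2 value of 1.21 fell to 0.38 without array 2076 and 0.39 without array 2198, so the spread rests on these 2 arrays.

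Nr4a2, the receptor Nurr1, was above the floor on 3 arrays, with 518 on array 2194, 1042 on 2195 and 628 on 2199. On the other 5 arrays it lay under the floor, at 29.9 to 139.7. None of these 3 arrays was among the 3 highest for Egr1 or the 3 highest for Nr4a1. The inner range was at least 2.14-fold, and the second probe set of Nr4a2 lay under the floor on all 8 arrays.

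Nr4a3, the receptor NOR-1, gave 479 on array 2074, 774 on 2076, 876 on 2194, 896 on 2195, 253 on 2196, 291 on 2197, 1170.5 on 2198 and 263 on 2199, of which those on 2196 and 2199 were under the floor. The inner range was at least 3.02-fold. A second measured probe set gave 186, 693, 621, 900.5, 221, 518, 850.03 and 533 in the same order of arrays and an inner range of at least 2.81-fold. Both probe sets were low on array 2196 and high on 2195 and 2198, but 2197 and 2199 were near or under the floor in the first and above it in the second, and the reverse held on 2074. Array 2195 also had the highest floor, 471. By percentile within the array, the first probe set stood at 58.6 on 2195, below 2076 (64.0), 2194 (66.0) and 2198 (69.8) and above the rest. The second stood at 58.8 there, below 2076 (61.8) and 2198 (62.6) and above the rest. Of 28 pairs of arrays, 20 had the same order in both probe sets and 4 had no order in at least 1. Without array 2074 the second probe set stood for the gene, with a log2 inner range of 0.70. The third Nr4a3 probe set was not measured. It exceeded the array's median on 1 array, 2195, at 892. It lay under the floor on 3 arrays, among them 2076, at 121, where the other probe sets were above it.

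All 5 measured members, 5 of 5, had an inner range of 2-fold or more, against 29.8% of all measured genes (3130 of 10513). Because 2 of the 5 had low arrays raised to the floor, the size of their ranges depends on it. With 1 common floor for all arrays, at the highest floor, 3 of 5 reached 2-fold. Without array 2074 or without array 2195, 3 of 5 did, and over arrays 2194 to 2199 alone 2 of 5 did. None of the 6 measured probe sets had a single array far from the others by Dixon's ratio at its 95% critical value.

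**Figure D2:**
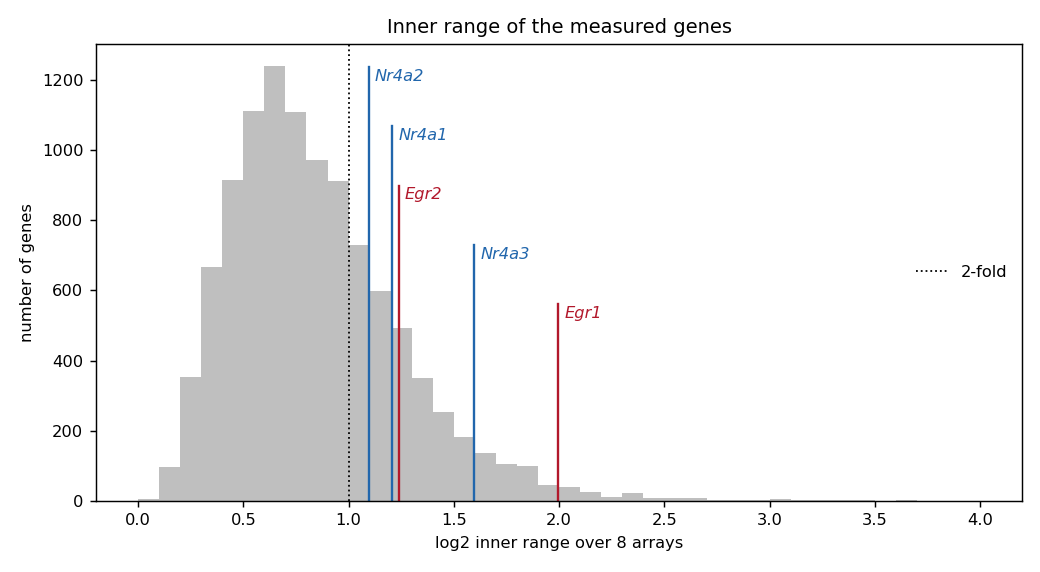
Number of genes (vertical axis) by log2 inner range over the 8 arrays (horizontal axis) for the 10513 measured genes in grey, with the 5 measured EGR and NR4A genes as coloured lines and 2-fold dotted. Egr1, at 3.99-fold, lies beyond 98.7% of genes; the lines of Nr4a2 and Nr4a3 are lower bounds.

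The question the 2 families pose together is whether they put the arrays in the same order. On the log2 scale, with each measured gene centred on its median array and the genes of a family averaged, the EGR family (Egr1 and Egr2) was highest on array 2076 (0.77) and 2196 (0.72) and lowest on 2074 (-1.71). The NR4A family (Nr4a1, Nr4a2 and Nr4a3) was highest on array 2198 (0.75) and 2195 (0.65) and lowest on 2197 (-0.86). Both family means put 17 of the 28 pairs of arrays in the same order and 11 in the opposite order. Unrelated orders would on average give as many pairs in the same order as in the opposite one, and no p was computed for this count. The NR4A mean holds Nr4a2, raised on 5 arrays to floors that differ between arrays, and Nr4a3, raised on 2, so that the order of those arrays depends in part on the floors. With 1 common floor 17 pairs had the same order, and with Nr4a2 left out 19 did. The gap between the means was widest on array 2074 (-1.71 for EGR and -0.12 for NR4A). By rank, array 2196 was the second highest for EGR and the seventh for NR4A, and 2195 the sixth and the second. The place of 2195 rested on Nr4a2, since without it the NR4A mean there was 0.18 and the fourth highest. Over arrays 2194 to 2199, 8 of 15 pairs had the same order with the same probe sets, and 6 (40%) when those arrays were processed alone and the second probe set stood for Nr4a3, against 60.7% over all 8 arrays.

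**Figure D3:**
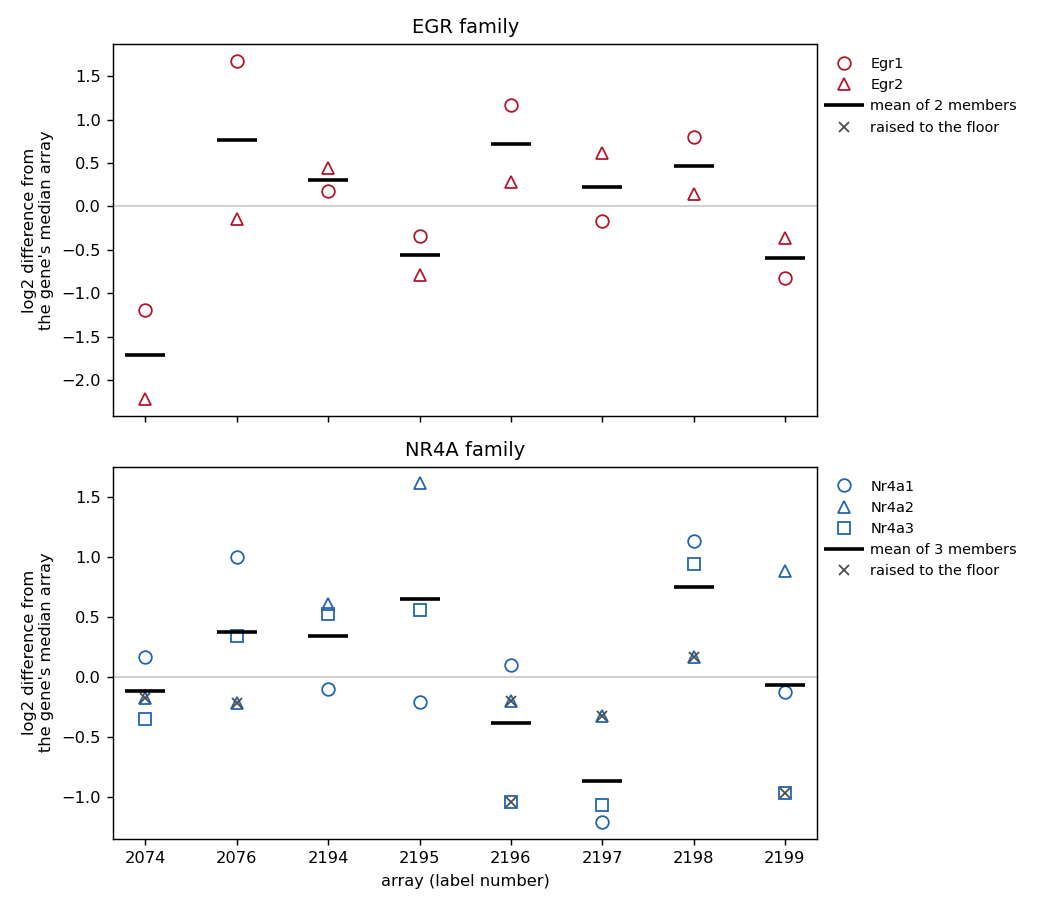
Log2 difference of each measured EGR (top) and NR4A (bottom) gene from its own median array (vertical axis) on the 8 arrays (horizontal axis), with family means as black bars and values raised to the floor marked by a cross. The EGR mean is lowest on array 2074 and the NR4A mean on 2197.

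Counted for single genes, Egr1 and Nr4a1 gave the same order in 18 of 28 pairs, as did Egr1 and Egr2, and Nr4a1 and Nr4a3 in 17, with 3 pairs without an order. Egr2 and Nr4a1 gave the same order in 12 pairs. For Nr4a2, 10 pairs had no order against Egr1, and of the rest 5 had the same order.

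Correlations of log2 signal over the 8 arrays were computed for Egr1 and for Nr4a1 against every other measured gene, with a two-sided exact permutation test and Benjamini-Hochberg adjustment over the 10512 genes tested with each. The 2 treatment groups are mixed among the arrays in an unknown way, and a correlation may carry a difference between them. With either gene, 0 of the others had an adjusted p under 0.05. At an unadjusted exact permutation p under 0.05, 1.43% of genes were higher where Egr1 was higher and 1.62% lower, and for Nr4a1 the shares were 3.1% and 2.8%. The smallest p that 40320 permutations of 8 arrays allow is 2.48e-05, so that a single gene cannot pass the adjustment alone.

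Egr1 and Nr4a1 had a Pearson r of 0.54 (exact permutation p = 0.169, adjusted p = 0.9999) and a Spearman rho of 0.45 (exact permutation p = 0.267), higher than the r of 95.2% of genes with Egr1. Without arrays 2074 and 2076, which were the 2 farthest from the Egr1 median, r was 0.52. Egr1 and Egr2 had r = 0.59 (exact permutation p = 0.121, adjusted p = 0.9999) and rho = 0.52 (exact permutation p = 0.197), and r = 0.48 without those 2 arrays. Neither relation passed the test.

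Nr4a1 and Nr4a3 had r = 0.61 (exact permutation p = 0.118, adjusted p = 0.797) and rho = 0.45 (exact permutation p = 0.267). Without arrays 2197 and 2198, the 2 farthest from the Nr4a1 median, r was 0.16, so the relation rested on them. Nr4a1 and Egr2 had r = -0.15 (exact permutation p = 0.691, adjusted p = 0.938, rho = -0.21 with exact permutation p = 0.619), and 0.028 without arrays 2197 and 2198. Egr1 and Nr4a3 had r = 0.28 (exact permutation p = 0.492, adjusted p = 0.9999, rho = 0.12 with exact permutation p = 0.793), and 0.16 over arrays 2194 to 2199. With the second probe set, which stood for Nr4a3 when those 6 arrays were processed alone, r was -0.36 over them. Nr4a2, at the floor on 5 arrays, had r = -0.37 with Egr1 (exact permutation p = 0.377, adjusted p = 0.9999, rho = -0.45 with exact permutation p = 0.267) and -0.12 with Nr4a1 (exact permutation p = 0.778, adjusted p = 0.962, rho = -0.17 with exact permutation p = 0.703). Values raised to the floor entered r and rho at the floors of their arrays, which differ. The r and rho of Nr4a2, and to a lesser extent of Nr4a3, therefore depend in part on an order of floors. With 1 common floor the r of Nr4a2 was -0.35 with Egr1 and -0.22 with Nr4a1. Of the 7 relations 4 were positive, and none passed the test before or after adjustment.

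**Figure D4:**
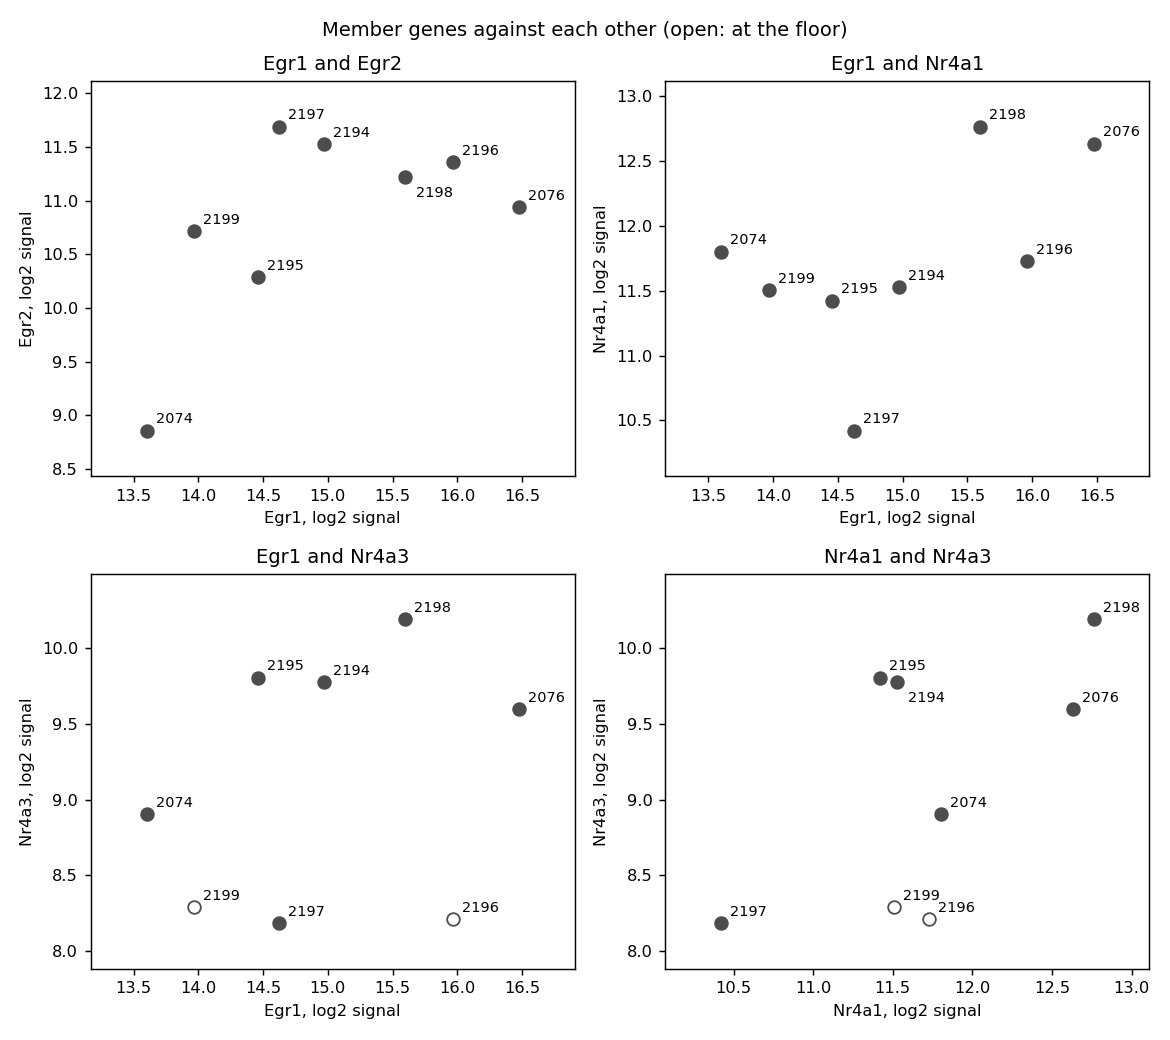
Log2 signal of member genes against each other, 1 point per array with its label number, open where the gene on the vertical axis was at the floor. Array 2074 is lowest for Egr1 and Egr2 and the third highest for Nr4a1; array 2197 is highest for Egr2 and lowest for Nr4a1.

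The genes most like Egr1, the 5 with the highest Pearson r over the 8 arrays, were Spry2, Tmem222, Errfi1, Tnfaip3 and Atf6b. Spry2, an inhibitor of receptor tyrosine kinase signalling to ERK, gave 1516 on array 2074, 6177 on 2076, 3740.5 on 2194, 2571 on 2195, 5097 on 2196, 3023 on 2197, 4439 on 2198 and 2035 on 2199. This is the order of Egr1 on all 8 arrays (rho = 1, exact permutation p = 4.96e-05), with r = 0.99 (exact permutation p = 7.44e-05, adjusted p = 0.652). Without arrays 2074 and 2076 r was 0.98. Errfi1, an inhibitor of the EGF receptor, had r = 0.95 (exact permutation p = 6.70e-04, adjusted p = 0.880; rho = 0.95, exact permutation p = 0.00114) and ran from 25001 on array 2074 to 98375 on 2196. Tmem222, a membrane protein, had r = 0.96 (exact permutation p = 4.46e-04, adjusted p = 0.880), Tnfaip3, an inhibitor of NF-kappaB, 0.93 (exact permutation p = 0.00181, adjusted p = 0.9999) and Atf6b, a factor of the endoplasmic reticulum stress response, 0.93 (exact permutation p = 0.00146, adjusted p = 0.9999). Their rho values were 0.93, 0.93 and 0.90 (exact permutation p = 0.00223, 0.00223 and 0.00456). Without arrays 2074 and 2076 the r of these 4 genes lay between 0.88 and 0.97. As the highest of 10512 values these are a description, and none passed the adjusted test.

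The 5 genes most like Nr4a1 were Mob3a (r = 0.95), Naa12 (0.95), Il1r1, the receptor for interleukin 1 (0.95), Tmem198b (0.94) and Phactr1, a regulator of actin (0.93). Their exact permutation p values ran from 2.23e-04 for Naa12 to 0.00226 for Tmem198b, with an adjusted p of 0.597 for each, and rho ran from 0.71 in Il1r1 (exact permutation p = 0.0576) to 0.95 in Naa12 (exact permutation p = 0.00114). Without arrays 2197 and 2198 r was 0.74 in Phactr1, 0.81 in Tmem198b, 0.83 in Il1r1, 0.90 in Mob3a and 0.93 in Naa12.

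**Figure D5:**
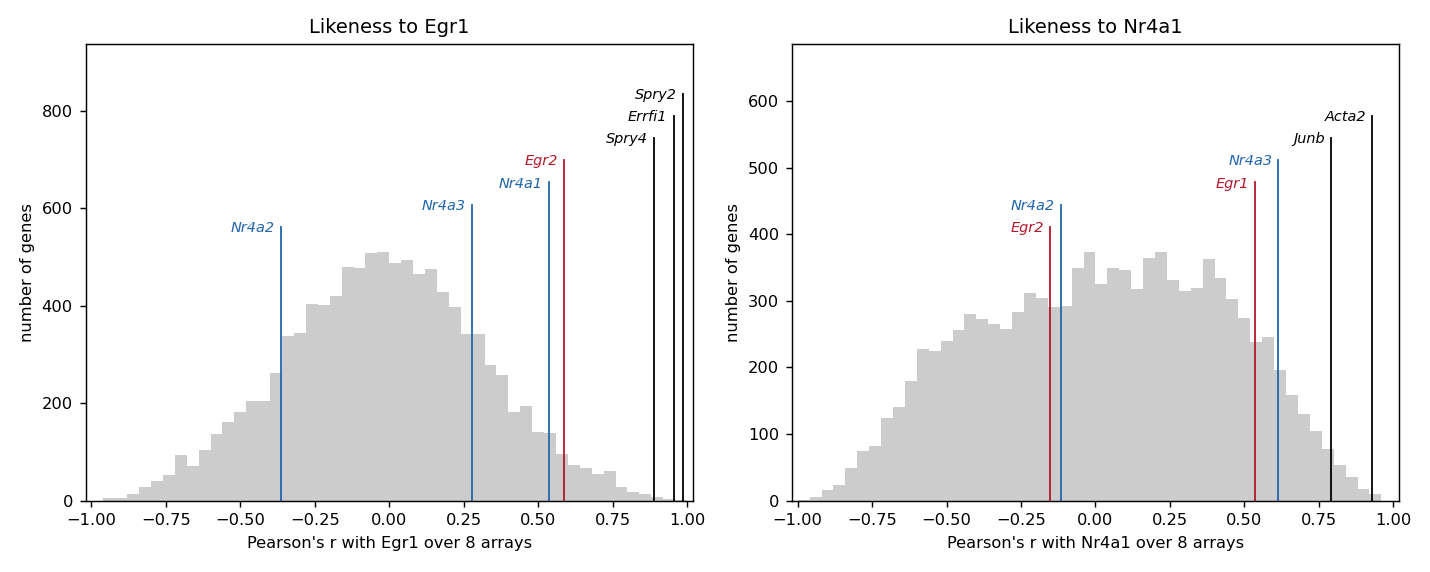
Number of genes (vertical axis) by Pearson's r (horizontal axis) with Egr1 (left) and with Nr4a1 (right) over the 8 arrays, for all 10512 other measured genes in grey, with named genes as lines. Spry2 lies at 0.99 with Egr1, while Nr4a1 lies at 0.54.

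Among other immediate-early and feedback genes, 26 of 28 with a probe set were measured. With Egr1, 22 of the 26 had a positive r, with a median of 0.49, against 48.1% of all measured genes and a median of -0.02. At an unadjusted exact permutation p of r under 0.05, 5 were higher with Egr1 and 1 lower, against 1.43% and 1.62% of all genes. Of the 26, 0 passed the adjusted test. The 5 were Spry2, its relative Spry4 (r = 0.89), Ier3, a survival factor (0.81), Ier2 (0.80) and Fos, a subunit of AP-1 (0.75). The 1 lower was Klf4, a zinc finger factor (r = -0.77). In this group rho ran from 0.79 in Fos to 1 in Spry2 and was -0.76 in Klf4, and the exact permutation p of r ran up to 0.0324 in Klf4. Over arrays 2194 to 2199, which leaves out the 2 farthest from the Egr1 median, r was 0.83 in Spry4, 0.69 in Ier3, 0.76 in Ier2, 0.78 in Fos and -0.62 in Klf4. With Nr4a1, 20 of the 26 had a positive r (median 0.39, against 0.04 for all genes, 53.1% of which were positive). At an unadjusted exact permutation p under 0.05, where 3.1% of all genes were higher with Nr4a1 and 2.8% lower, 0 were lower and 3 higher. These were Junb (r = 0.79), another AP-1 subunit, Zfp36 (0.78), which speeds mRNA decay, and Dusp1 (0.77), a phosphatase of MAP kinases, with rho of 0.76, 0.71 and 0.71 and an exact permutation p of r of 0.0197, 0.0308 and 0.0286. With Egr1 the r of these 3 was 0.69, 0.54 and 0.34, and with Nr4a1 the r of the 5 was 0.44 in Spry2, 0.58 in Spry4, 0.39 in Ier3, 0.22 in Ier2 and 0.003 in Fos. Without arrays 2197 and 2198 the r with Nr4a1 was 0.85, 0.896 and 0.83. Whether a gene's r with Egr1 differed from that with Nr4a1 was not tested. Of the 26, 12 spanned 2-fold or more, against 29.8% of all measured genes, led by Junb (3.33-fold), Ccn2, a matricellular protein (3.02-fold), and Fosl1 (2.96-fold), and Klf10 had the smallest, 1.35-fold.

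Of the signalling genes upstream, 9 were measured and 1 spanned 2-fold or more, against 29.8% of all measured genes. It was Prkaca, a catalytic subunit of protein kinase A (3.45-fold). Srf, which encodes serum response factor, the protein that binds CArG boxes, gave 3404 on array 2074, where Egr1 and Egr2 were also lowest, 6336 on 2195 and 7710.5 to 14330 on the other 6. Its r with Egr1 was 0.62 (exact permutation p = 0.0939, adjusted p = 0.9999; rho = 0.57, exact permutation p = 0.151) and 0.42 without arrays 2074 and 2076. Inner ranges were 1.55-fold in Egfr, the EGF receptor, 1.47-fold in Map2k1, the kinase above ERK, and 1.26-fold in Elk1, a partner of serum response factor. With Egr1, 5 of the 9 had a positive r, against 48.1% of all genes, and with Nr4a1 9 did, against 53.1%, with 0 at an unadjusted exact permutation p of r under 0.05 with either gene. The rho of Map2k1 with Nr4a1 was 0.83 (exact permutation p = 0.0154, adjusted p = 0.413).

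Among partners of the EGR proteins, 4 of 6 were measured and 0 reached 2-fold, against 29.8% of all measured genes. Nab1, a corepressor of EGR1, had 1.76-fold, Nab2, the other, 1.53-fold, Wt1, a related zinc finger factor, 1.44-fold and Sp1 1.39-fold. Nab2, itself known as an EGR target, had r = 0.31 with Egr1. All 6 partners of the NR4A proteins were measured and 2 reached 2-fold, against the same 29.8%, Nr5a1 (3.14-fold), which binds a DNA site like that of the NR4A proteins, and Rxrb (2.35-fold), a retinoid X receptor that can pair with NR4A1. Rxrg had at least 1.99-fold, and Nr5a2 the smallest, 1.24-fold. Neither list had a member at an unadjusted exact permutation p of r under 0.05 with Egr1 or Nr4a1. Nr0b1, a corepressor of nuclear receptors, had a rho of -0.79 with Nr4a1 (exact permutation p = 0.0279) and an r of -0.49 (exact permutation p = 0.215, adjusted p = 0.822). It lay under the floor on 3 arrays, 2074, 2076 and 2198, which were the 3 highest for Nr4a1. Their order in this rho is that of their floors.

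Of the ovulation and steroid genes, 15 were measured and 8 spanned 2-fold or more, against 29.8% of all measured genes. With Egr1, 12 of the 15 had a positive r (median 0.20), against 48.1% of all genes, and with Nr4a1 10 did (median 0.41), against 53.1%. Edn2, a vasoconstrictor peptide of the ovulating follicle, had r = 0.79 with Egr1 (exact permutation p = 0.0201, adjusted p = 0.9999; rho = 0.81, exact permutation p = 0.0218) and 0.58 without arrays 2074 and 2076. It was the only 1 of the 15 at an unadjusted p under 0.05 with either gene, a level that 1.43% of all genes reached in the same direction with Egr1. Ptgs2, which makes prostaglandins and is known to be induced by ovulatory signals, gave 9215 on array 2198, the highest for Nr4a1, and 459.9 to 1281 on the other 7. On array 2076, the second highest for Nr4a1, it gave 635. Its r with Nr4a1 was 0.54 (exact permutation p = 0.215, adjusted p = 0.822, rho = 0.21 with exact permutation p = 0.619). Without arrays 2197 and 2198 this r was -0.27. Star, which carries cholesterol into mitochondria, had r = 0.40 with Egr1 (exact permutation p = 0.312; rho = 0.10, exact permutation p = 0.840) and -0.08 without arrays 2074 and 2076. Cyp11a1, the first enzyme of steroid synthesis, had r = 0.20 (exact permutation p = 0.660), and 0.05 without them. Cyp19a1, the aromatase, had r = -0.58 with Egr1 (exact permutation p = 0.131, adjusted p = 0.9999, rho = -0.36 with exact permutation p = 0.389). Lhcgr, the receptor for luteinizing hormone, had r = -0.71 (exact permutation p = 0.0546, adjusted p = 0.9999, rho = -0.55 with exact permutation p = 0.171). Without arrays 2074 and 2076 the r was -0.46 in Cyp19a1 and -0.55 in Lhcgr. Arrays 2076 and 2196, the 2 highest for Egr1, were the 2 lowest for Cyp19a1 (987 and 3582) and for Lhcgr (1008 and 753).

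Defining markers of granulosa cells were present, with 7 of 8 listed genes measured, and Fshr having no probe set with 1 name. Their summed signal ran from 93022 on array 2196 to 192748 on 2074. Such sums, here and below, weigh each gene by its signal and include values under the floor. They do not measure the amount of a cell type. The blood marker Hbb, a globin, was 45704 on array 2074, the lowest array for Egr1 and Egr2, against 3709 to 12573 on the other 7. Its r with Nr4a1 was 0.47 (exact permutation p = 0.244, adjusted p = 0.822) and its rho 0.81 (exact permutation p = 0.0218). Acta2, a marker of smooth muscle and theca, had r = 0.93 with Nr4a1 (exact permutation p = 0.00193, adjusted p = 0.597; rho = 0.76, exact permutation p = 0.0368), and 0.78 without arrays 2197 and 2198. Theca and stroma markers, 6 of 8 measured, summed to 2692 on array 2196 and 6902 on 2198, the highest array for Nr4a1. Of the 6902, Acta2 gave 3072. The other measured theca and stroma markers had an r with Nr4a1 from -0.07 in Dcn to 0.53 in Col1a1. Tagln and Pdgfra were not measured. Macrophage and leukocyte markers summed to 5355 on array 2197 and 9174.5 on 2196, with Ptprc, which marks all leukocytes, not measured. Of endothelial markers 2 of 5 listed were measured, and of oocyte markers 2 of 6, with Zp1, Zp3 and Bmp15 not measured. The part of other cells in the spread of the EGR and NR4A genes was not tested.

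The ratio of 3' to 5' signal of beta-actin, a measure of RNA integrity and labelling, was 12.1 on array 2076 and 10.99 on 2074, the highest and the lowest array for Egr1, and 4.67 to 8.08 on the other 6. For Gapdh the ratio was 5.27 to 8.81, highest on array 2197, with 6.66 on 2074 and 6.07 on 2076. For hexokinase it was 0.55 to 8.60, with 1.32 on array 2074 and the highest ratio on 2076. In 28.1% of measured genes arrays 2074 and 2076 both lay on the same side beyond all 6 others, and in 0 of the 5 measured EGR and NR4A genes. The share that unrelated orders would give was not computed, and 5 genes are too few to set against 28.1%. This count also misses genes with arrays 2074 and 2076 at opposite ends, as in Egr1. The part of RNA quality was not tested.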

How the data were processed

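Biotin-labelled total RNA of each sample was hybridised to 1 array. The authors deposited signal intensity on a linear scale, produced by MAS5 according to the submitters' processing notes, with a 2% trimmed mean of 1500.5 to 1500.6 on every array. No detection calls were used here. Arrays were scaled so that probe sets in the upper part of every array had 1 common median, log2 values were taken and values under the array's 40th percentile raised to it. The brightest measured probe set stood for a gene (10513 measured genes). Of 20832 probe sets with 1 symbol, 20764 matched a GRCr8 gene table, which changed 0 names, and 436 with several were left out. Exact permutation correlations were computed in Python 3.11.15 with numpy 2.4.6, and tested on simulated data. The members, lists and rules were chosen with earlier results of these data known. Named are the members and the 5 genes most like Egr1 and Nr4a1. Of each list, up to 3 with the widest inner range or the highest r with Egr1 and the narrowest are named. Others, such as Fos, Ier2, Klf4, Zfp36, Dusp1 and Nr0b1, were named to complete a count after their values were seen. So were the markers Hbb, Acta2, Tagln, Pdgfra, Ptprc, Zp1, Zp3 and Bmp15. The order of arrays in Cyp19a1 and Lhcgr was also noted after the values were seen. Alternatives were other scaling, floors, filters, probe sets, measures and arrays; a common floor and leaving out Nr4a2 were added after seeing the data. The number of arrays limits the precision.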

Additional observations from a re-analysis of the deposited data

How the results depend on the processing

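Egr1 with Nr4a1 and Egr1 with Egr2 kept a positive r under each of 18 alternatives (0.33 to 0.67 and 0.26 to 0.71), and no adjusted p of the 7 relations fell under 0.05 (lowest 0.58). With 1 array left out, the r of Egr1 with Nr4a3 ran from -0.15 (without array 2074) to 0.56, and it was -0.36 over arrays 2194 to 2199. In both negative values another probe set stood for Nr4a3, and with the first one r was 0.26 without array 2074 and 0.16 over arrays 2194 to 2199. That of Nr4a1 with Nr4a2 ran from -0.58 to 0.035 (without array 2076; 0.0058 without 2195) and was 0.079 over arrays 2194 to 2199, and that of Nr4a1 with Egr2 ran from -0.31 to 0.19 (without 2197). The cause of these last changes was not tested. The number of members at 2-fold or more was 3 with a filter on all 8 arrays, which leaves 3 members, 3 with the mean of probe sets, 3 with a common floor, 2 over arrays 2194 to 2199 and 3 to 5 with 1 array left out. The families' shared order covered 6 of 15 pairs (40%) over arrays 2194 to 2199 and 10 to 15 of 21 with 1 array left out, the 10 without array 2074 (12 with the first Nr4a3 probe set). No paired analysis was possible because the labels give no groups. Signals near the floor limit Egr3, Nr4a2 and Nr4a3.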
